A study of Mus musculus with 4 samples.

Results

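The 36 glycolysis and hypoxia response genes of a single-cell experiment on T cells from mice with B16 melanoma are described here across cell labels and tissues. They were taken from a named list and looked up in the gene table, where all 36 of 36 were found among 14721 genes. By role they are 4 glucose and lactate carriers, 9 enzyme genes of upper glycolysis, 8 of lower glycolysis, 5 side enzymes and 10 genes of the response to low oxygen. The tumor RNA library held 5570 cells, of which 2693 carried the label Tdp, 2451 the label Cd4, 406 the label Tcell, 19 the label Treg and 1 the label Cd8. The lymph node RNA library held 4988 cells, with 2788 labelled Cd8, 321 Treg, 1873 Cd4 and 6 Tdp. Per the labels' protocols, every mouse received 200000 cells of the melanoma line B16F10 under the skin in matrigel, 250 mg/kg cyclophosphamide once tumors were established, and 1000000 transgenic CD4 T cells, whose receptor recognises the melanocyte protein TRP1, a day later. Tissue was taken on day 11 after transfer, and the transferred cells were sorted by the CD45.1 marker as CD4+ or CD4+CD8+. All samples carry the strain label RAG1- BW TRP-1 TCR and the treatment label untreated, the transplanted tumor stands for melanoma in this model, and the number and age of the animals behind each library were not given in the sources used here. The protocols describe the sort alike for both tissues, but the sample titles name transgenic and endogenous cells for tumor and only endogenous cells for lymph node. The transgenic chains were taken to be the most frequent alpha and beta receptor chains of the tumor library itself. Either of these chains was called in 5540 tumor cells and in 0 lymph node cells. Tissue, receptor and, by the titles, origin of the cells thus differ together.

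Glycolysis is the cytosolic pathway that splits glucose into pyruvate, and lactate dehydrogenase turns pyruvate into lactate where it is not burned in mitochondria. Resting T cells run it slowly, and activated T cells take up more glucose and export lactate. When oxygen falls, the prolyl hydroxylases encoded by Egln1 and Egln3 stop marking the HIF1A protein for destruction, and HIF1A then raises transcription of many glycolysis genes and of genes such as Bnip3, Pdk1, Egln3 and Vegfa. HIF1A is controlled to a large part as a protein, which RNA counts do not show.

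Labels were checked against their defining genes. Transcripts of Cd8a or Cd8b1 were found in 95.9% of tumor Tdp cells and 10.2% of tumor Cd4 cells, and transcripts of Cd4 or its regulator Zbtb7b in 79.6% of tumor Tdp cells and 86.8% of tumor Cd4 cells. In lymph node, 95.6% of Cd8 cells, 10.2% of Cd4 cells and 26.2% of Treg cells had Cd8a or Cd8b1. Cd4 or Zbtb7b was found there in 5.34% of Cd8 cells, 56.7% of Cd4 cells and 61.4% of Treg cells. A transcript of Foxp3, Il2ra, Ikzf2 or Ctla4 was found in 99.4% of lymph node Treg cells, 15.6% of Cd4 cells and 27.0% of Cd8 cells. In tumor it was found in 88.0% of Tdp cells and 87.3% of Cd4 cells, with Ctla4 the most abundant, so this share does not set Treg cells apart there. Depth was a median of 6633 UMIs per cell in tumor Tdp cells and 5533 in tumor Cd4 cells, and of 6306 in lymph node Cd8 cells, 5225 in Treg cells and 4763 in Cd4 cells. The 7 melanoma genes in the table summed to 2.69 CPM (UMIs of a gene scaled to a total of 1000000 UMIs per label) in tumor Tdp cells, with Dct at 0, and to 3.80 CPM in tumor Cd4 cells, with Tyrp1 at 0. The 8 macrophage genes summed to 16.9 CPM in tumor Tdp cells and 7.52 CPM in tumor Cd4 cells, with Adgre1 at 0 in both. The libraries shared 36 cell barcodes. Since there was 1 RNA library per tissue, values have no replicate and no test was made. Intervals (95%) cover counting error only.

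Summed over the cells of a label, the genes of glycolysis were higher in tumor than in lymph node T cells, and within the tumor they were lower in Tdp than in Cd4 cells. The 17 enzyme genes of the 10 steps and of lactate dehydrogenase summed to 4886 CPM (interval 4854 to 4919) in tumor Tdp cells and 6767 CPM (6724 to 6811) in tumor Cd4 cells. The sum was 2273 CPM in lymph node Cd8 cells, 3182 CPM in lymph node Treg cells and 2323 CPM in lymph node Cd4 cells. The 10 hypoxia response genes followed a flatter course, with 860 CPM in tumor Tdp cells, 1451 CPM in tumor Cd4 cells, 794 CPM in lymph node Cd8 cells, 983 CPM in Treg cells and 746 CPM in Cd4 cells. The 4 carriers summed to 136 CPM in tumor Tdp cells, 159 CPM in tumor Cd4 cells, 52.4 CPM in lymph node Cd8 cells, 62.0 CPM in Treg cells and 39.1 CPM in Cd4 cells. The 5 side enzymes stayed between 44.5 and 72.5 CPM in these labels.

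**Figure D1:**
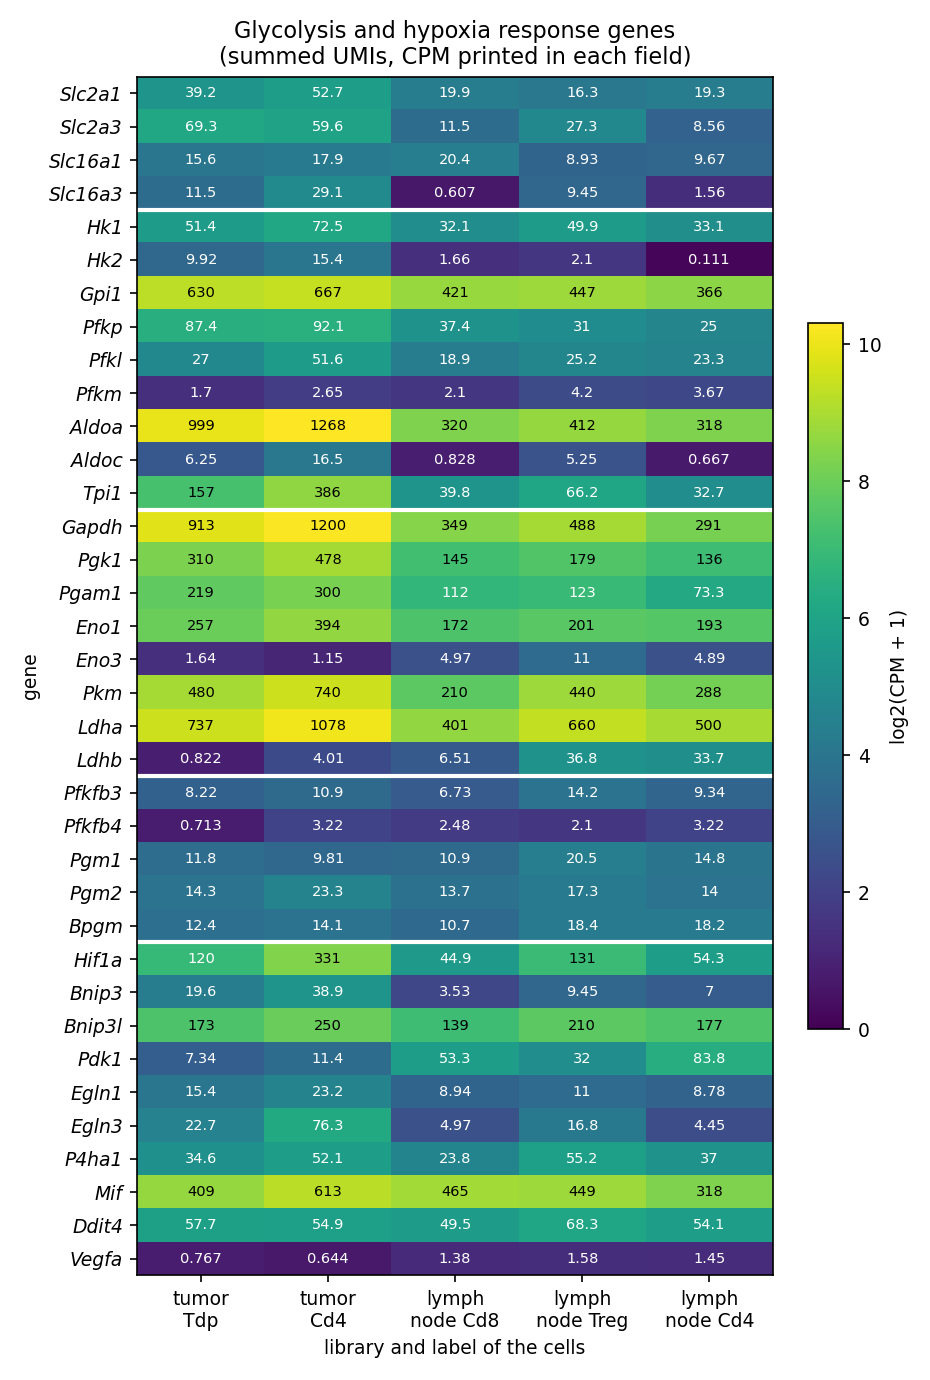
Level of each of the 36 members (rows, by role, white lines between roles) in 5 labels (columns); the number in each field is CPM of summed UMIs and the colour is log2(CPM + 1). Most enzyme rows are brightest in tumor Cd4 cells, such as Aldoa at 1268 CPM, while Ldhb and Pdk1 are darker in the tumor columns than in lymph node Cd4 cells.

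Tumor Cd4 cells were first set against lymph node Cd4 cells, the nearest match of label between the libraries. Tumor Cd4 cells held more transcripts at nearly every step from glucose uptake to lactate export. They held fewer of Ldhb and Pdk1. A gene was called higher or lower where log2 of (CPM + 1) differed by 2-fold and the gene reached 20 CPM in either label, and intervals of a ratio are given without the added 1. Of the 36 members 26 reached 20 CPM, and 18 of these were called higher and 2 lower, while over all 5134 genes tested 14.7% were called higher and 6.21% lower. The median log2 ratio was 1.33 over the 26 members and 0.20 over all genes tested. By role, 3 of 3 carriers, 5 of 6 upper and 6 of 7 lower glycolysis genes, 0 of 1 side enzymes and 4 of 9 hypoxia response genes were called higher.

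Among the carriers, Slc2a3, which encodes the high-affinity glucose carrier GLUT3, stood at 69.3 CPM in tumor Tdp cells, 59.6 CPM in tumor Cd4 cells, 11.5 CPM in lymph node Cd8 cells, 27.3 CPM in Treg cells and 8.56 CPM in lymph node Cd4 cells. The log2 ratio of tumor Cd4 over lymph node Cd4 cells was 2.66 (interval 2.46 to 3.16). Slc2a1, which encodes the widespread glucose carrier GLUT1, stood at 39.2 CPM in tumor Tdp cells and 52.7 CPM in tumor Cd4 cells, against 19.9 CPM in lymph node Cd8 cells, 16.3 CPM in Treg cells and 19.3 CPM in lymph node Cd4 cells. Both glucose carriers were thus higher in both tumor labels than in any of the 3 lymph node labels. The lactate exporter Slc16a3 (MCT4) was at 11.5 CPM in tumor Tdp cells, 29.1 CPM in tumor Cd4 cells, 0.607 CPM in lymph node Cd8 cells, 9.45 CPM in Treg cells and 1.56 CPM in lymph node Cd4 cells. Its log2 ratio between the Cd4 labels was 3.56 (3.46 to 5.11), from 406 UMIs in tumor and 14 in lymph node. Slc16a1, the lactate and pyruvate carrier MCT1, ran a different course, with 15.6 CPM in tumor Tdp cells, 17.9 CPM in tumor Cd4 cells, 20.4 CPM in lymph node Cd8 cells, 8.93 CPM in Treg cells and 9.67 CPM in lymph node Cd4 cells.

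Upper glycolysis runs from hexokinase, which traps glucose as its phosphate, to triose-phosphate isomerase. Tpi1, the isomerase gene, differed most between the Cd4 labels among the upper enzymes at 20 CPM. It stood at 157 CPM in tumor Tdp cells, 386 CPM in tumor Cd4 cells, 39.8 CPM in lymph node Cd8 cells, 66.2 CPM in Treg cells and 32.7 CPM in lymph node Cd4 cells, with a log2 ratio of 3.52 (3.39 to 3.74) between the Cd4 labels. Aldoa, the main aldolase of T cells, was at 999 CPM in tumor Tdp cells and 1268 CPM in tumor Cd4 cells, against 320 CPM in lymph node Cd8 cells, 412 CPM in Treg cells and 318 CPM in lymph node Cd4 cells. The ratio between the Cd4 labels was 1.99 (1.94 to 2.05). Phosphofructokinase commits sugar to the pathway, and its platelet-type gene Pfkp was at 87.4 CPM in tumor Tdp cells, 92.1 CPM in tumor Cd4 cells, 37.4 CPM in lymph node Cd8 cells, 31.0 CPM in Treg cells and 25.02 CPM in lymph node Cd4 cells. The liver-type gene Pfkl was at 27.0 CPM in tumor Tdp cells, 51.6 CPM in tumor Cd4 cells, 18.9 CPM in lymph node Cd8 cells, 25.2 CPM in Treg cells and 23.3 CPM in lymph node Cd4 cells. Hexokinase 1 (Hk1) was at 51.4 CPM in tumor Tdp cells, 72.5 CPM in tumor Cd4 cells, 32.1 CPM in lymph node Cd8 cells, 49.9 CPM in Treg cells and 33.1 CPM in lymph node Cd4 cells. Pfkp, Pfkl and Hk1 had log2 ratios of 1.84, 1.11 and 1.11 between the Cd4 labels and were all called.

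Gpi1, which encodes glucose-6-phosphate isomerase, was the enzyme of upper glycolysis at 20 CPM that missed the call. It stood at 630 CPM in tumor Tdp cells and 667 CPM in tumor Cd4 cells, against 421 CPM in lymph node Cd8 cells, 447 CPM in Treg cells and 366 CPM in lymph node Cd4 cells, a log2 ratio of 0.86 (0.81 to 0.92) between the Cd4 labels. The other upper genes were below 20 CPM in these 5 labels. The inducible hexokinase Hk2 was at 9.92 CPM in tumor Tdp cells and 15.4 CPM in tumor Cd4 cells (215 UMIs), against 1.66 CPM in lymph node Cd8 cells, 2.10 CPM in Treg cells and a single UMI in lymph node Cd4 cells, so that the counting interval of the last ratio ran from 4.62 to 12.42 on the log2 scale. The brain-type aldolase Aldoc was at 16.5 CPM in tumor Cd4 cells and 0.667 CPM in lymph node Cd4 cells, and the muscle-type phosphofructokinase Pfkm at 2.65 CPM in tumor Cd4 cells and 3.67 CPM in lymph node Cd4 cells.

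In lower glycolysis, which yields ATP and pyruvate, 6 genes had the same order between the Cd4 labels. Gapdh, the dehydrogenase that opens this stage, stood at 913 CPM in tumor Tdp cells, 1200 CPM in tumor Cd4 cells, 349 CPM in lymph node Cd8 cells, 488 CPM in Treg cells and 291 CPM in lymph node Cd4 cells, a log2 ratio of 2.04 (1.98 to 2.10) between the Cd4 labels. Phosphoglycerate mutase (Pgam1) was at 219 CPM in tumor Tdp cells, 300.3 CPM in tumor Cd4 cells, 112 CPM in lymph node Cd8 cells, 123 CPM in Treg cells and 73.3 CPM in lymph node Cd4 cells, with a ratio of 2.02 (1.92 to 2.16). Phosphoglycerate kinase (Pgk1) was at 310 CPM in tumor Tdp cells, 478 CPM in tumor Cd4 cells, 145 CPM in lymph node Cd8 cells, 179 CPM in Treg cells and 136 CPM in lymph node Cd4 cells. The difference narrowed at the last steps. Pyruvate kinase (Pkm) was at 480 CPM in tumor Tdp cells, 740 CPM in tumor Cd4 cells, 210 CPM in lymph node Cd8 cells, 440 CPM in Treg cells and 288 CPM in lymph node Cd4 cells. Enolase 1 (Eno1) was at 257 CPM in tumor Tdp cells, 394 CPM in tumor Cd4 cells, 172 CPM in lymph node Cd8 cells, 201 CPM in Treg cells and 193 CPM in lymph node Cd4 cells. Ldha, which encodes the lactate dehydrogenase subunit of glycolytic tissues, was at 737 CPM in tumor Tdp cells, 1078 CPM in tumor Cd4 cells, 401 CPM in lymph node Cd8 cells, 660 CPM in Treg cells and 499.5 CPM in lymph node Cd4 cells. The log2 ratios between the Cd4 labels were 1.803 for Pgk1, 1.36 for Pkm, 1.11 for Ldha and 1.03 for Eno1, and Eno1 was the closest of the called genes to the threshold.

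Ldhb, the lactate dehydrogenase subunit that predominates in oxidative tissues such as heart, went the other way. It stood at 0.822 CPM in tumor Tdp cells, 4.01 CPM in tumor Cd4 cells, 6.51 CPM in lymph node Cd8 cells, 36.8 CPM in Treg cells and 33.7 CPM in lymph node Cd4 cells. Both tumor labels were below all 3 lymph node labels, and the log2 ratio between the Cd4 labels was -2.79 (-3.51 to -2.66), from 56 UMIs in tumor and 303 in lymph node. The muscle-type enolase Eno3 was at 1.15 CPM in tumor Cd4 cells and 4.89 CPM in lymph node Cd4 cells, below the level at which a gene was called.

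Of the side enzymes, Pgm2, a phosphoglucomutase gene, reached 20 CPM, with 14.3 CPM in tumor Tdp cells, 23.3 CPM in tumor Cd4 cells, 13.7 CPM in lymph node Cd8 cells, 17.3 CPM in Treg cells and 14.0 CPM in lymph node Cd4 cells. Its log2 ratio between the Cd4 labels was 0.70 (0.44 to 1.05). Pgm1 was at 9.81 CPM in tumor Cd4 cells and 14.8 CPM in lymph node Cd4 cells, and reached 20.5 CPM in lymph node Treg cells. The symbols Pgm1 and Pgm2 were exchanged between versions of the mouse annotation, so which of the paired enzymes each row counts is uncertain. Bpgm, which makes the shunt product bisphosphoglycerate, was at 14.1 CPM in tumor Cd4 cells and 18.2 CPM in lymph node Cd4 cells. Pfkfb3 and Pfkfb4, which set the level of the phosphofructokinase activator fructose bisphosphate, were at 10.9 and 3.22 CPM in tumor Cd4 cells and 9.34 and 3.22 CPM in lymph node Cd4 cells.

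The hypoxia response genes split. Hif1a, the oxygen-regulated transcription factor subunit, stood at 120 CPM in tumor Tdp cells, 331 CPM in tumor Cd4 cells, 44.9 CPM in lymph node Cd8 cells, 131 CPM in Treg cells and 54.3 CPM in lymph node Cd4 cells. Egln3, an oxygen sensor and a textbook HIF target, was at 22.7 CPM in tumor Tdp cells, 76.3 CPM in tumor Cd4 cells, 4.97 CPM in lymph node Cd8 cells, 16.8 CPM in Treg cells and 4.45 CPM in lymph node Cd4 cells. Bnip3, which targets mitochondria for removal, was at 19.6 CPM in tumor Tdp cells, 38.9 CPM in tumor Cd4 cells, 3.53 CPM in lymph node Cd8 cells, 9.45 CPM in Treg cells and 7.005 CPM in lymph node Cd4 cells. The log2 ratios between the Cd4 labels were 3.83 (3.65 to 4.59) for Egln3, 2.59 (2.47 to 2.74) for Hif1a and 2.32 (2.09 to 2.87) for Bnip3. Egln1, the main oxygen sensor in most tissues, was called as well, with 23.2 CPM in tumor Cd4 cells and 8.78 CPM in lymph node Cd4 cells, a ratio of 1.31 (1.04 to 1.78).

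Pdk1, which encodes a pyruvate dehydrogenase kinase and is a textbook HIF target, was lower in tumor. It stood at 7.34 CPM in tumor Tdp cells, 11.4 CPM in tumor Cd4 cells, 53.3 CPM in lymph node Cd8 cells, 32.0 CPM in Treg cells and 83.8 CPM in lymph node Cd4 cells, a log2 ratio of -2.78 (-3.14 to -2.63) between the Cd4 labels. No tumor label reached any lymph node label.

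The remaining hypoxia response genes were not called between the Cd4 labels. Mif, a cytokine gene, stood at 409 CPM in tumor Tdp cells, 613 CPM in tumor Cd4 cells, 465 CPM in lymph node Cd8 cells, 449 CPM in Treg cells and 318 CPM in lymph node Cd4 cells, just under the threshold at 0.94 (0.88 to 1.01). Bnip3l, a relative of Bnip3, was at 173 CPM in tumor Tdp cells, 250 CPM in tumor Cd4 cells, 139 CPM in lymph node Cd8 cells, 210 CPM in Treg cells and 177 CPM in lymph node Cd4 cells. The collagen prolyl hydroxylase P4ha1 was at 34.6 CPM in tumor Tdp cells, 52.1 CPM in tumor Cd4 cells, 23.8 CPM in lymph node Cd8 cells, 55.2 CPM in Treg cells and 37.0 CPM in lymph node Cd4 cells. Ddit4 (REDD1), an inhibitor of mTOR signalling, varied least of these, between 49.5 CPM in lymph node Cd8 cells and 68.3 CPM in Treg cells, with 54.9 CPM in tumor Cd4 cells and 54.1 CPM in lymph node Cd4 cells. Vegfa, the angiogenic factor, was close to the limit of detection, with 9 UMIs in tumor Cd4 cells and 13 in lymph node Cd4 cells.

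The libraries also differed in ways that the labels do not name. The median share of UMIs from ribosomal protein genes was 29.1% in tumor cells and 43.8% in lymph node cells. The 6 B cell genes summed to 9.15 CPM in tumor Tdp cells, 25.6 CPM in tumor Cd4 cells, 215 CPM in lymph node Cd8 cells, 545 CPM in Treg cells and 233 CPM in lymph node Cd4 cells, most of it Ighm. The 7 genes of naive and resting T cells summed to 352 CPM in tumor Tdp cells and 377 CPM in tumor Cd4 cells, against 2761 CPM in lymph node Cd8 cells and 3480 CPM in lymph node Cd4 cells. With totals that left out receptor, mitochondrial and ribosomal protein genes, 16 members were called higher and 2 lower between the Cd4 labels, and the medians were 1.05 for members and -0.16 for all genes tested. All genes called split into 636 higher and 794 lower under those totals, and into 757 higher and 319 lower under the plain totals. With TMM scaling the medians were 1.22 for members and 0.08 for all genes tested, and 14 members were called higher and 2 lower, against 12.5% higher and 7.69% lower of all genes. Without cells holding markers of other cell types the member median was 1.37. The part of naive state, B cell transcripts and receptor in the difference was not tested.

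Tumor Tdp cells were then set against tumor Cd4 cells. Used were the 2682 Tdp and 2435 Cd4 cells with a chain taken as transgenic because it was the most frequent in this library. Nearly all members were lower in Tdp cells, mostly by less than 2-fold, and 4 were called: Hif1a, Egln3, Slc16a3 and Tpi1. Of 24 members at 20 CPM, 22 were below 0 and 2 above, with 0 called higher and 4 lower. Over all 4817 genes tested, 1.18% were called higher and 2.33% lower, and 30.0% had a log2 ratio above 0. The median log2 ratio was -0.57 over the members and -0.11 over all genes tested. Medians by role were -0.42 for carriers, -0.42 for upper glycolysis, -0.59 for lower glycolysis and -0.58 for the hypoxia response.

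Hif1a was at 120.0 CPM in Tdp cells and 330.3 CPM in Cd4 cells, a log2 ratio of -1.45 (-1.53 to -1.39). Egln3 was at 22.7 CPM in Tdp cells and 76.5 CPM in Cd4 cells, a ratio of -1.71 (-1.92 to -1.59). Slc16a3 was at 11.4 CPM in Tdp cells and 29.2 CPM in Cd4 cells, a ratio of -1.28 (-1.60 to -1.11). Tpi1 was at 157 CPM in Tdp cells and 387 CPM in Cd4 cells, a ratio of -1.30 (-1.37 to -1.24). Each of the 4 was higher in both tumor labels than in lymph node Cd8 and lymph node Cd4 cells. In cells thinned to 2000 UMIs, a Hif1a transcript was found in 20.8% of Tdp cells and 43.5% of Cd4 cells, and a Tpi1 transcript in 23.7% of Tdp cells and 46.6% of Cd4 cells. At the same depth the shares in lymph node Cd4 cells were 9.99% for Hif1a and 6.74% for Tpi1. At full depth, Hif1a was found in 50.4% of Tdp cells and 73.7% of Cd4 cells, and Tpi1 in 53.3% of Tdp cells and 73.6% of Cd4 cells.

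Members just short of the call were Bnip3, with 19.5 CPM in Tdp cells and 38.9 CPM in Cd4 cells and a ratio of -0.96 (-1.19 to -0.80), and Pfkl, with 27.1 CPM in Tdp cells and 51.8 CPM in Cd4 cells and a ratio of -0.91 (-1.11 to -0.77). The other enzymes formed a band. Eno1, Pgk1 and Pkm had log2 ratios of -0.62, -0.63 and -0.63, Ldha -0.55, Hk1 -0.49, Pgam1 -0.46, Gapdh -0.40 and Aldoa -0.35. Gpi1 and Pfkp were nearly level, each at -0.08. Slc2a3 was slightly higher in Tdp cells, at 69.2 CPM in Tdp cells and 59.5 CPM in Cd4 cells, a ratio of 0.22 (0.09 to 0.35), while Slc2a1 was at -0.42 (-0.58 to -0.27). Ddit4 had a ratio of 0.07 (-0.06 to 0.21). Below 20 CPM, Ldhb had 15 UMIs in Tdp cells and 56 in Cd4 cells, Pfkfb4 had 13 in Tdp cells and 45 in Cd4 cells, and Aldoc had 114 in Tdp cells and 229 in Cd4 cells.

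With TMM scaling the member median was -0.46, that of all genes 0.01, and the same 4 members were called lower. All genes called then split into 75 higher and 90 lower, against 57 higher and 112 lower under plain totals. When cells were classed by their own coreceptor UMIs in place of the labels, giving 2328 double positive and 2033 CD4 cells, Hif1a and Egln3 were called, at -1.27 and -1.46. Slc16a3 then had a ratio of -0.70 and Tpi1 one of -0.90. Markers of natural killer cells summed to 156 CPM in Tdp cells, mostly Gzma, and 16.7 CPM in Cd4 cells, with Ncr1 at 0 in both, and Pecam1 was the most abundant endothelial marker, at 3.56 CPM in Tdp cells and 12.1 CPM in Cd4 cells. Their part in the result was not tested.

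**Figure D2:**
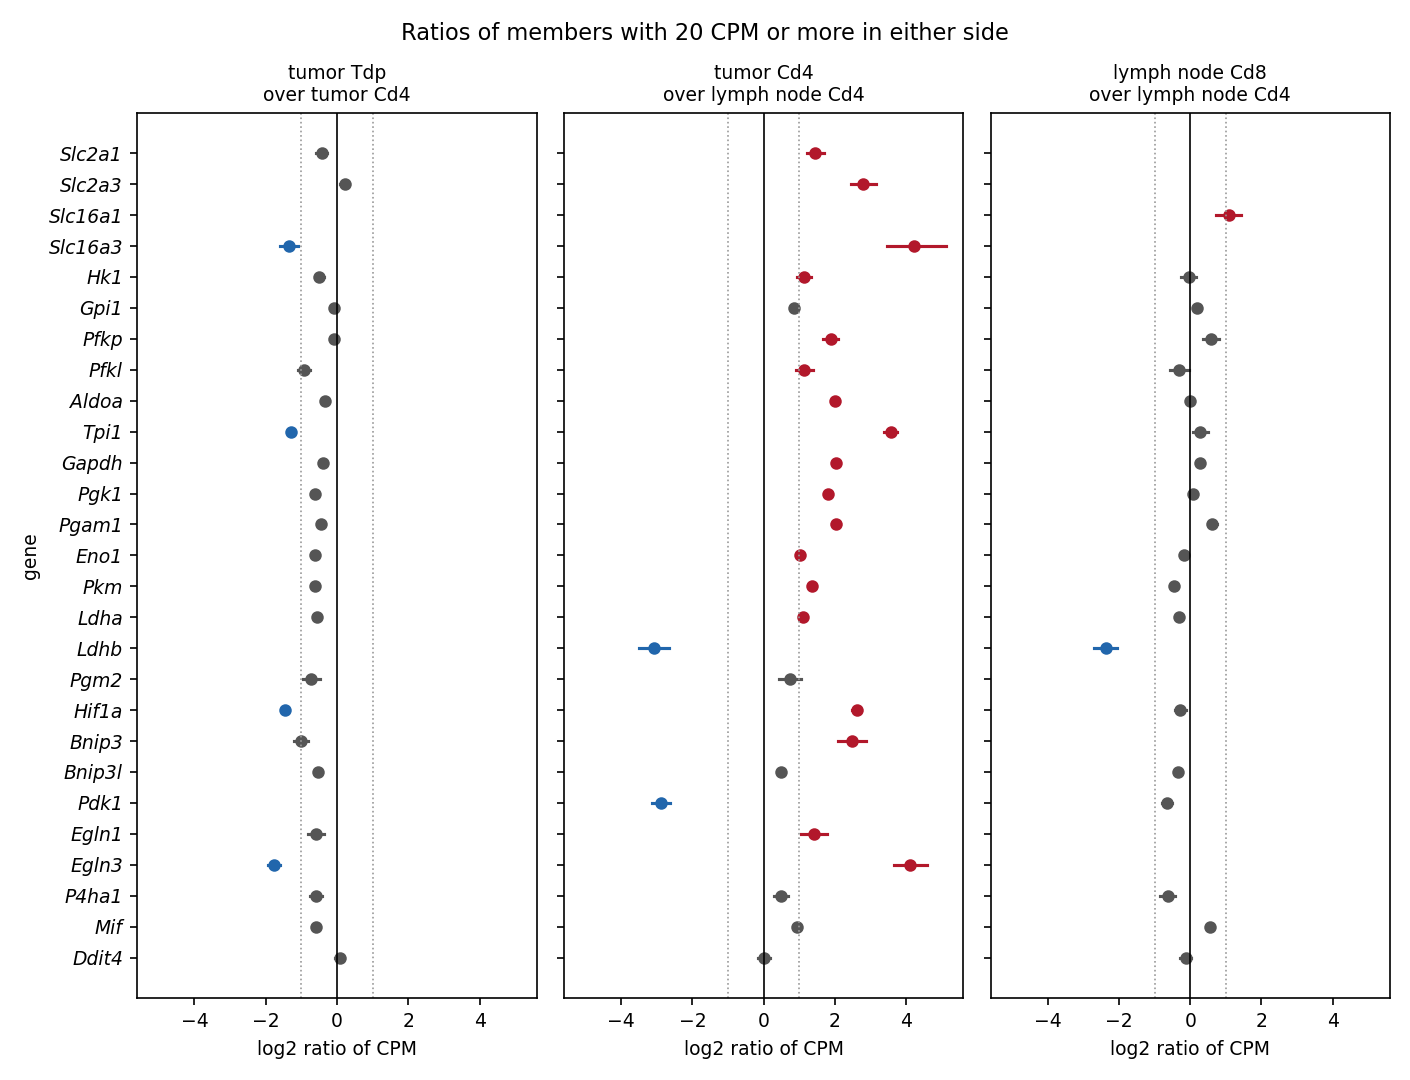
Log2 ratio of CPM, without an added 1, for members at 20 CPM in either label (rows), with 95% counting intervals as bars; red marks genes called higher, blue genes called lower, grey genes not called, and dotted lines 2-fold. Tumor Tdp over tumor Cd4 cells lies mostly left of 0, tumor Cd4 over lymph node Cd4 cells mostly right of 0, and lymph node Cd8 over Cd4 cells on both sides, with Ldhb called lower in the last and in the middle panel.

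The promoters of the 4 genes called lower in Tdp cells are shown because HIF binds DNA at a short core. Their shared direction follows from that choice, and a shared regulator was not tested. The window is 250 bases before to 50 bases after 1 listed transcript start per gene, from RefSeq on GRCm38.p6, written 5′ to 3′ on the gene's strand, with ACGTG, or its reverse complement CACGT, in capitals. Slc16a3 lies at chr11:120948817-120949116 on the + strand, Tpi1 at chr6:124814109-124814408 on the - strand, Hif1a at chr12:73907617-73907916 on the + strand and Egln3 at chr12:54203825-54204124 on the - strand.
Slc16a3: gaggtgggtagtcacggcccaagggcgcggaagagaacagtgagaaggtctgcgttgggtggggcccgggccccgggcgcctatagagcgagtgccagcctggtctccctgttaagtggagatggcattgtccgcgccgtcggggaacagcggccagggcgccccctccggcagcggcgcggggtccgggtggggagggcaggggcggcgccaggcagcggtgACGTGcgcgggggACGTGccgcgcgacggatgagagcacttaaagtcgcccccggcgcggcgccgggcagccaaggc
Tpi1: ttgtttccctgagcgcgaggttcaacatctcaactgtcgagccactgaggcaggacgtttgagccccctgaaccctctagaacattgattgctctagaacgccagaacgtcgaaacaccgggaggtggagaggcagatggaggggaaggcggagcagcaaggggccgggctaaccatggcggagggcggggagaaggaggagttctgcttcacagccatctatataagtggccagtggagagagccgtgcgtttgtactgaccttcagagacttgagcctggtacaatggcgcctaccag
Hif1a: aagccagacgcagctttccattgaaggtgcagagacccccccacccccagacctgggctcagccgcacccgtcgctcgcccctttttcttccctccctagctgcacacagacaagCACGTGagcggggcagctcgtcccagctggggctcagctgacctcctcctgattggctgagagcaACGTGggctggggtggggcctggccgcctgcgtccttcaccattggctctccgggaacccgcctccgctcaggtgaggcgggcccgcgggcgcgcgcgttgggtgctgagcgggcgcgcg
Egln3: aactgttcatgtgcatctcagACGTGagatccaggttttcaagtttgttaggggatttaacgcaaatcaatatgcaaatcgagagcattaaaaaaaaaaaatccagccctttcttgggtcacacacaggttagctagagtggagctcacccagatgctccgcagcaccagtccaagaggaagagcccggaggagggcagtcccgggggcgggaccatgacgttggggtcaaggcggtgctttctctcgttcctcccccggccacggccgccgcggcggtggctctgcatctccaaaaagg
ACGTG occurred 2 times in the Slc16a3 window, 0 times in Tpi1, 3 times in Hif1a and 1 time in Egln3. The listed start is the outermost annotated start of the gene for Tpi1 and Egln3, but lies 583 bases inside it for Slc16a3 and 6543 bases inside it for Hif1a, so that further starts of these genes are not covered. In Hif1a 2 of the 3 matches are the overlapping strands of a CACGTG, which also is the E-box read by MYC and other factors.

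Promoters of 34 members were in the table, and Slc2a3 and Bnip3l are named only. Pgm1 and Pgm2 were left out for the exchange of symbols, which leaves 32, of which 12 have a listed start inside the outermost one, 4 of them (Hif1a, Eno3, Pfkfb4 and Ldha) by over 1000 bases. On either strand ACGTG occurred in 18 of the 32 (56.2%), in 19.7% of all 27025 promoters of the same length, and in 27.8% of the 3824 promoters of non-members at 20 CPM in the tumor comparison. GCGTG, the other core read by HIF, occurred in 17 of the 32 (53.1%), in 32.5% of all promoters and in 54.4% of those of genes at 20 CPM. CACGTG, which overlaps ACGTG, occurred in 5 members (15.6%), in 7.24% of all promoters and in 10.9% of those of genes at 20 CPM. Ldha held the most, with 5 matches of ACGTG, 2 of GCGTG and 2 of CACGTG. Hk1, Gpi1, Aldoa, Tpi1, Pkm, Bpgm and Vegfa had no match of any of the 3 motifs in this window. A match describes these letters and is not a binding site, and its absence says only that the letters are not in the window.

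Tumor Tdp cells were next set against lymph node Cd8 cells, the labels with Cd8a and Cd8b1 transcripts in each tissue. The members were mostly higher in tumor, as between the Cd4 labels. These label pairs hold separate cells of the same tumor library and the same lymph node library, so they are not replicates of the tissue difference. Of 22 members at 20 CPM, 9 were called higher and 1 lower, against 11.4% higher and 5.13% lower over all 4837 genes tested. Called higher were Slc2a3 at 2.49, Egln3 at 1.99, Tpi1 at 1.95, Aldoa at 1.64, Hif1a at 1.40, Gapdh at 1.38, Pfkp at 1.204, Pkm at 1.19 and Pgk1 at 1.09 on the log2 scale. Pdk1 was called lower, at -2.70 (-3.13 to -2.60). The median was 0.91 over the members and 0.17 over all genes tested. With totals without receptor, mitochondrial and ribosomal protein genes these medians were 0.45 and -0.20, with 7 members called higher and 1 lower, and all genes called split into 434 higher and 663 lower, against 552 higher and 248 lower under plain totals.

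Bnip3 did not reach 20 CPM in this pair, with 19.6 CPM in tumor Tdp cells and 3.53 CPM in lymph node Cd8 cells (357 and 64 UMIs). Slc16a3 had 210 UMIs in tumor Tdp cells and 11 in lymph node Cd8 cells. Slc16a1 and Mif were lower in tumor Tdp than in lymph node Cd8 cells without reaching 2-fold, at -0.37 (-0.62 to -0.16) and -0.18 (-0.23 to -0.14). Over whole libraries, which hold the cells of both pairs, 12 of 22 members were called higher in tumor and 1, Pdk1, lower, against 11.5% higher and 5.18% lower of all 4978 genes tested. The medians there were 1.195 for members and 0.16 for all genes, or 0.67 and -0.18 with totals without receptor, mitochondrial and ribosomal protein genes, where all genes called split into 475 higher and 638 lower in place of 571 higher and 258 lower.

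Within the lymph node, Cd8 and Cd4 cells had similar sums but differed at a few genes. Slc16a1 was called higher in Cd8 cells and Ldhb lower, of 20 members at 20 CPM, while 2.12% of all 4530 genes tested were called higher and 1.43% lower. Slc16a1 was at 20.4 CPM in Cd8 cells and 9.67 CPM in Cd4 cells, a log2 ratio of 1.01 (0.74 to 1.43), which lies at the threshold and was 0.93 without cells holding markers of other cell types. Ldhb was at 6.51 CPM in Cd8 cells and 33.7 CPM in Cd4 cells, a ratio of -2.21 (-2.69 to -2.06). The enzymes leaned to Cd8 cells at some steps, with Pgam1 at 0.61 and Pfkp at 0.56, and to Cd4 cells at others, with Pkm at -0.45 and Ldha at -0.32. Mif was at 0.54 (0.48 to 0.61), and P4ha1 and Pdk1 were at -0.61 and -0.64. The median was -0.09 over the members and -0.07 over all genes tested, so the list as a whole sat where all genes did.

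Treg cells of the lymph node were set against the same Cd4 cells, which thus serve in 3 comparisons. Slc2a3 and Hif1a were called higher and Pdk1 lower, of 21 members at 20 CPM, and over all 5185 genes tested 10.5% were called higher and 1.41% lower. Slc2a3 was at 27.3 CPM in Treg cells and 8.56 CPM in Cd4 cells (52 and 77 UMIs), a log2 ratio of 1.57 (1.14 to 2.20). Hif1a was at 131 CPM in Treg cells and 54.3 CPM in Cd4 cells, a ratio of 1.25 (1.04 to 1.49). Pdk1 was at 32.0 CPM in Treg cells and 83.8 CPM in Cd4 cells, a ratio of -1.36 (-1.79 to -1.01). Tpi1 lay at the threshold, with 66.2 CPM in Treg cells and 32.7 CPM in Cd4 cells, and Egln3 had 32 UMIs in Treg cells and 40 in the more numerous Cd4 cells.

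The members' median in Treg over Cd4 cells was 0.40, beside 0.31 for all genes tested, of which 77.7% were above 0. The median share of ribosomal protein UMIs was 30.5% in Treg cells and 43.5% in Cd4 cells. With TMM scaling the medians were 0.04 for members and -0.05 for all genes, Hif1a stood at 0.92 and Slc2a3 at 1.25, and all genes called split into 311 higher and 166 lower, against 546 higher and 73 lower under plain totals. With totals without receptor, mitochondrial and ribosomal protein genes that split was 473 higher and 234 lower. The Treg cells held 545 CPM of B cell genes and the Cd4 cells 233 CPM, and 191 of 321 Treg cells carried 2 or more UMIs of B cell, myeloid or melanoma markers. Without such cells in either label, Slc2a3 was at 1.17, Hif1a at 0.94 and Pdk1 at -1.03.

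Shares within enzyme and carrier families, which were computed after the levels had been seen, differed between tissues. They are read across labels only, since reads per transcript may differ between genes. Ldhb made up 0.111% of Ldha and Ldhb UMIs in tumor Tdp cells (interval 0.0624% to 0.184%) and 0.371% (0.280% to 0.481%) in tumor Cd4 cells. It made up 1.60% (1.32% to 1.91%) in lymph node Cd8 cells, 5.28% (4.14% to 6.62%) in Treg cells and 6.32% (5.65% to 7.04%) in Cd4 cells. The intervals of the tumor and lymph node labels did not overlap.

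Slc16a3 made up 42.5% of Slc16a1 and Slc16a3 UMIs in tumor Tdp cells (38.1% to 47.0%) and 61.9% in tumor Cd4 cells (58.1% to 65.6%). The lymph node shares were 2.89% in Cd8 cells (1.45% to 5.11%), 51.4% in Treg cells (34.0% to 68.6%, 35 UMIs in all) and 13.9% in Cd4 cells (7.79% to 22.2%). Hk2 made up 16.2% of hexokinase 1 and 2 UMIs in tumor Tdp cells and 17.5% in tumor Cd4 cells, against 4.91% in lymph node Cd8 cells, 4.04% in Treg cells and 0.334% in Cd4 cells. Slc2a3 took 63.9% of the UMIs of both glucose carriers in tumor Tdp cells and 53.1% in tumor Cd4 cells, and 36.7% in lymph node Cd8 cells, 62.7% in Treg cells and 30.7% in Cd4 cells. The lymph node Treg cells thus resembled the tumor labels in the 2 carrier pairs, which rest on 35 and 83 UMIs in Treg cells. In the hexokinase pair they were near the lymph node Cd8 cells, and in the lactate dehydrogenase pair near the lymph node Cd4 cells. These likenesses are by values and without a test.

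Among phosphofructokinase genes the tumor labels differed from each other. Pfkp made up 75.3% of the UMIs of Pfkp, Pfkl and Pfkm in tumor Tdp cells (73.4% to 77.1%) and 62.9% in tumor Cd4 cells (60.8% to 65.0%). The share was 64.0% in lymph node Cd8 cells (61.0% to 66.9%), 51.3% in Treg cells (41.8% to 60.7%) and 48.1% in Cd4 cells (43.5% to 52.7%). In both tissues the label with CD8 transcripts had the larger share of Pfkp and the smaller share of Pfkl. Pfkl made up 23.3% in tumor Tdp cells and 35.3% in tumor Cd4 cells, and 32.4% in lymph node Cd8 cells and 44.9% in lymph node Cd4 cells. Pfkm stayed between 1.46% and 7.05%, and Aldoc between 0.209% and 1.28% of Aldoa and Aldoc.

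**Figure D3:**
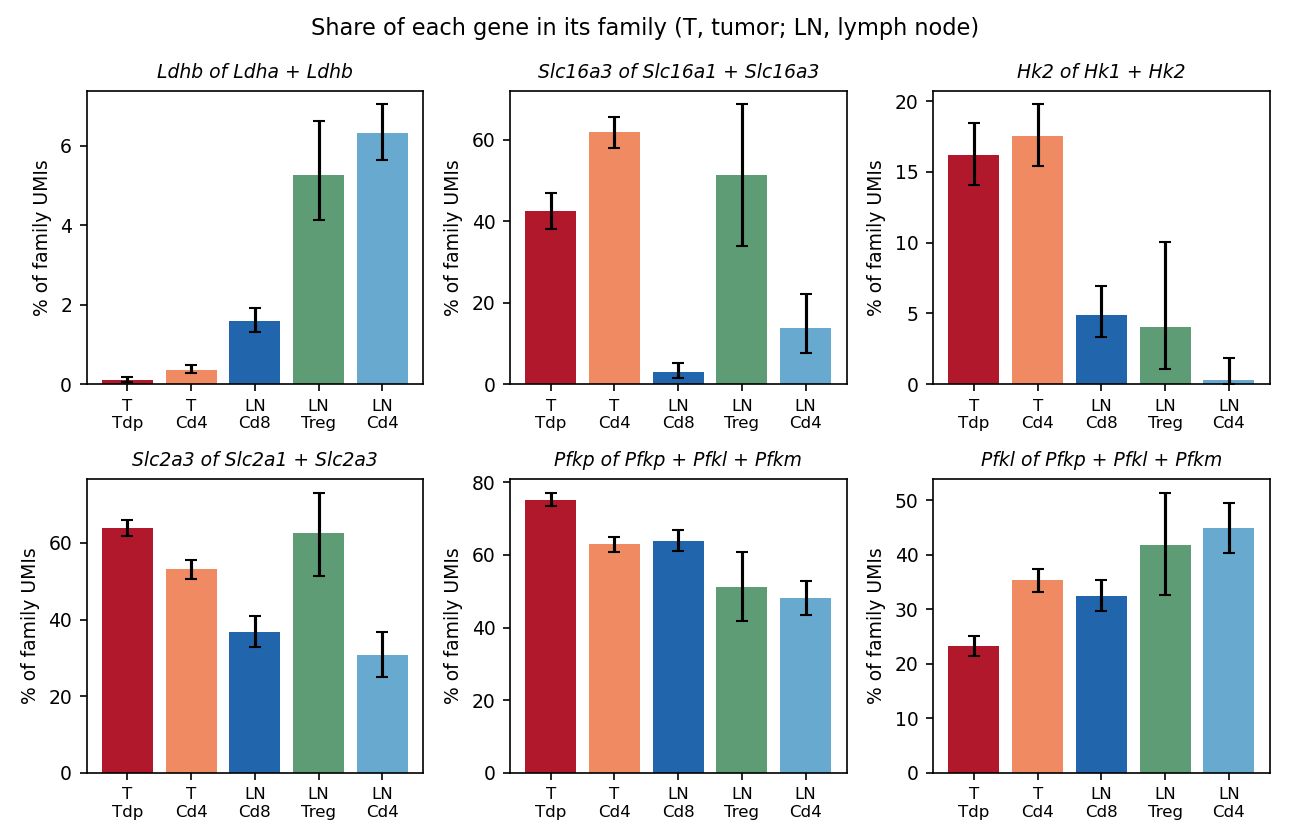
Share of a gene among the UMIs of its family in percent, with exact 95% binomial intervals (counting error only), in tumor (T) and lymph node (LN) labels. Ldhb lies below 1% in both tumor labels, Slc16a3 and Hk2 take larger shares in the tumor labels than in lymph node Cd8 and Cd4 cells, and Pfkp takes 75.3% in tumor Tdp cells.

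Cells within a label differed in their glycolytic enzyme transcripts, and among the 5 larger labels tumor Cd4 cells did so most. Each cell was thinned to 2000 UMIs, cells below that depth were left out, and the UMIs of the 17 enzyme genes were summed. The median cell held 9 such UMIs in tumor Tdp cells (10th to 90th percentile 5 to 15) and 11 in tumor Cd4 cells (6 to 24). It held 4 in lymph node Cd8 cells (2 to 8), 6 in Treg cells (3 to 10) and 4 in Cd4 cells (2 to 8). The variance over the mean, which is close to 1 where cells differ by counting alone, was 2.27 in tumor Tdp cells, 4.83 in tumor Cd4 cells, 1.28 in lymph node Cd8 cells, 1.74 in Treg cells and 1.12 in Cd4 cells. In 17 tumor cells labelled Treg it was 9.80. At 20 or more enzyme UMIs there were 97 of 2663 tumor Tdp cells (3.64%, interval 2.96% to 4.43%) and 401 of 2418 tumor Cd4 cells (16.6%, 15.1% to 18.1%). None of 2762 lymph node Cd8 cells reached it, which allows a share of up to 0.133%, 2 of 309 Treg cells did, and 0 of 1811 Cd4 cells, which allows up to 0.203%.

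**Figure D4:**
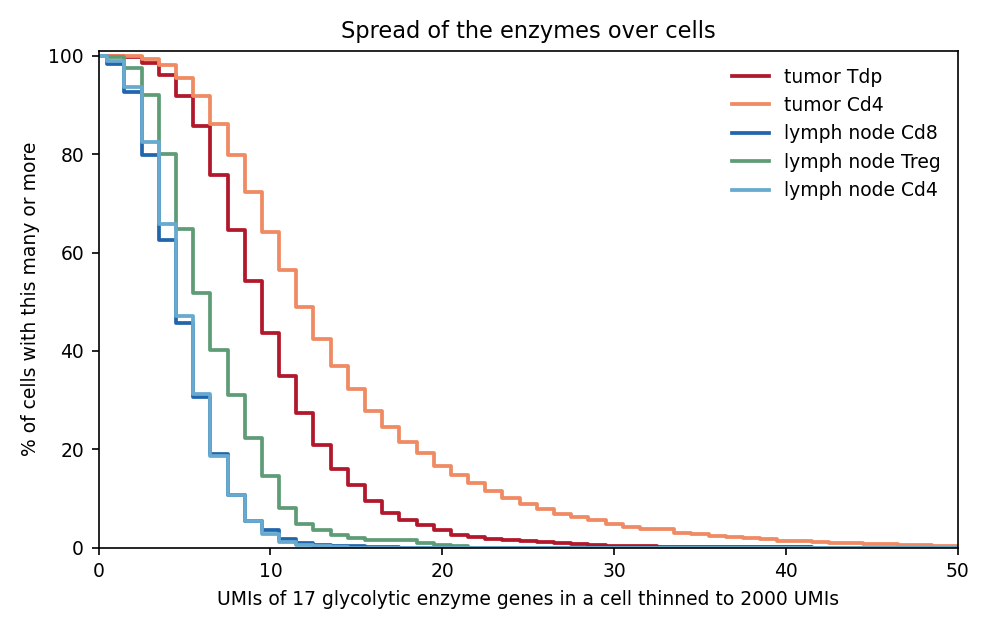
Percent of cells of each label (y axis) that hold at least the number of UMIs of the 17 glycolytic enzyme genes on the x axis, after thinning every cell to 2000 UMIs. The tumor Cd4 curve has a long tail, with 16.6% of cells at 20 or more, where the tumor Tdp curve has 3.64% and the lymph node Cd8 and Cd4 curves have none.

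The enzymes moved together across tumor Cd4 cells. As a description over cells of 1 library, Pearson's r of Aldoa with the sum of the other enzymes was 0.368 in 2663 tumor Tdp cells and 0.606 in 2418 tumor Cd4 cells, against 0.092 in lymph node Cd8 cells and 0.029 in lymph node Cd4 cells. In tumor Cd4 cells it was 0.480 for Pkm, 0.474 for Gapdh, 0.462 for Tpi1, 0.431 for Pgk1, 0.374 for Eno1, 0.334 for Ldha and 0.325 for Pgam1. It was 0.265 for Gpi1, 0.220 for Aldoc, 0.159 for Pfkl and 0.111 for Pfkp, and between -0.006 and 0.044 for Hk1, Hk2, Pfkm, Eno3 and Ldhb. At full depth in tumor Cd4 cells, Hk1 had 1012 UMIs, Hk2 215, Ldhb 56 and Pfkm 37, while Aldoc had 230. The part of a gene's level in these values of r was not tested. The enzyme sum had an r of 0.246 with the sum of the hypoxia response genes in tumor Tdp cells and 0.496 in tumor Cd4 cells, against 0.081 in lymph node Cd8 cells, 0.164 in Treg cells and 0.015 in Cd4 cells. In tumor Cd4 cells it had an r of 0.346 with Bnip3, 0.135 with the carriers and 0.134 with the cytotoxic granule gene Gzmb, against 0.035 with Hif1a, 0.014 with Pdk1, 0.027 with the cycling markers, 0.003 with Myc and -0.007 with Txnip. Ribosomal protein UMIs moved against it, with an r of -0.075 in tumor Tdp cells, -0.214 in tumor Cd4 cells, -0.234 in lymph node Cd8 cells, -0.407 in Treg cells and -0.163 in Cd4 cells, and their part in the other values was not tested.

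To show which other members went with the enzymes, cells at or above the 90th percentile of enzyme UMIs were set beside cells at or below the median, a division made after the spread was seen. It marks ranges of a count and not cell types. In tumor Cd4 cells these were 245 cells with 24 or more enzyme UMIs and 1234 cells with 11 or fewer, and levels are CPM with the 17 enzyme genes left out of the total. Bnip3 was at 212 (172 to 257) in the cells with many enzyme UMIs and 11.0 (7.24 to 16.0) in the cells with few. Cells with many enzyme UMIs also held more Mif (1487, against 390 in cells with few), Egln3 (164, against 65.1), Slc16a3 (85.0, against 18.3), P4ha1 (110, against 37.0) and Slc2a1 (106, against 42.7), each with intervals that did not overlap. Bnip3l was at 446 in cells with many enzyme UMIs and 234 in cells with few, and Pgm2 was at 56.0 in cells with many and 15.1 in cells with few.

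Hif1a itself, Slc2a3 and Pdk1 hardly followed. In tumor Cd4 cells, Hif1a was at 367 (315 to 425) in cells with many enzyme UMIs and 311 (289 to 334) in cells with few, with intervals that overlapped. Slc2a3 was at 70.5 (48.8 to 98.5) in cells with many and 61.0 (51.6 to 71.6) in cells with few, and Pdk1 at 12.4 (4.57 to 27.1) in cells with many and 10.2 (6.58 to 15.0) in cells with few. Vegfa had 0 UMIs in the first and 1 in the second. In tumor Tdp cells, where the upper range began at 15 enzyme UMIs (339 cells) and the lower ended at 9 (1501 cells), Bnip3 was at 41.7 in cells with many and 11.7 in cells with few, Mif at 701 in cells with many and 323 in cells with few, and Slc16a3 at 23.8 in cells with many and 6.35 in cells with few, with intervals apart. Egln3 was at 32.8 (20.5 to 49.6) in Tdp cells with many and 21.1 (16.2 to 26.9) in those with few, P4ha1 at 44.7 (30.1 to 63.8) with many and 25.1 (19.7 to 31.4) with few, and Slc2a1 at 43.2 (28.9 to 62.0) with many and 34.4 (28.1 to 41.7) with few. Unlike in Cd4 cells, the intervals of these 3 overlapped in Tdp cells, and the difference between the labels was not tested. The lower range of both tumor labels thus held Bnip3 at about one level, 11.7 in Tdp cells and 11.0 in Cd4 cells. In the upper range it was at 41.7 in Tdp cells and 212 in Cd4 cells. Those ranges began at 15 and 24 enzyme UMIs, so they are not matched between the labels.

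Depth and other cell types were compared between the same ranges of tumor Cd4 cells. Before thinning, the median was 5654 UMIs in cells with many enzyme UMIs and 5505 in cells with few. On the same scale the melanoma genes stood at 0 (0 to 7.65) in cells with many and 3.66 (1.67 to 6.95) in cells with few, and the macrophage genes at 6.22 (1.28 to 18.2) in cells with many and 8.14 (4.97 to 12.6) in cells with few. The B cell genes stood at 10.4 (3.37 to 24.2) in cells with many and 28.5 (22.2 to 35.98) in cells with few, and the cycling genes at 91.2 (66.3 to 122) in cells with many and 68.7 (58.8 to 79.9) in cells with few. Bsg, the chaperone that brings lactate carriers to the membrane, was at 473 in cells with many enzyme UMIs and 194 in cells with few, and Fam162a, a hypoxia-induced mitochondrial gene, at 400.2 in cells with many and 151 in cells with few. Gzmb was at 811 (732 to 895) in cells with many and 424 (399 to 451) in cells with few, and Ndrg1 at 45.6 (28.6 to 69.1) in cells with many and 22.4 (16.9 to 29.1) in cells with few. Txnip was at 419 (363 to 481) in cells with many and 389 (365 to 414) in cells with few. Myc was at 27.0 (14.4 to 46.1) in cells with many and 22.4 (16.9 to 29.1) in cells with few. The intervals of Ndrg1, Txnip and Myc overlapped, which does not show that their levels were equal.

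**Figure D5:**
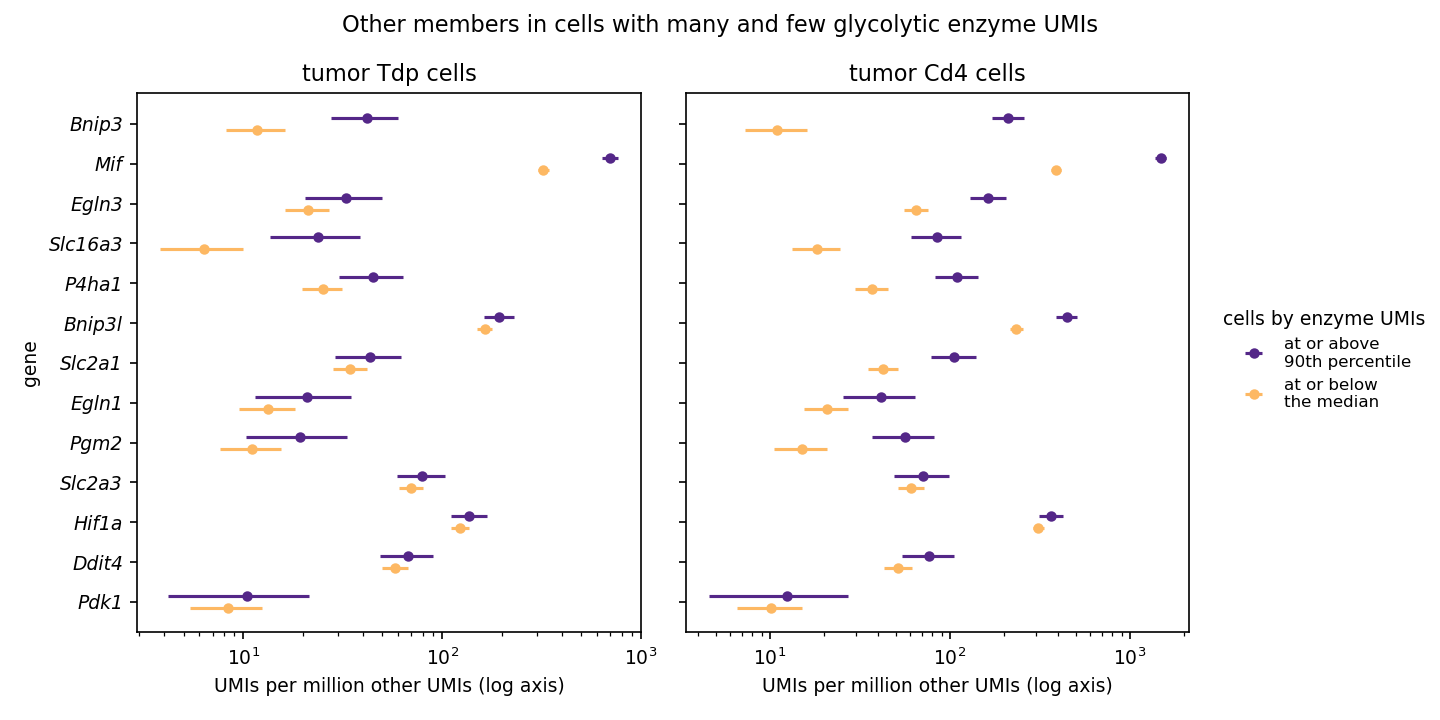
CPM with the 17 enzyme genes left out of the total (log axis), for 13 members in tumor Tdp and tumor Cd4 cells with enzyme UMIs at or above the 90th percentile (dark) or at or below the median (light); bars are exact 95% Poisson intervals. Bnip3, Mif, Egln3 and Slc16a3 lie apart in tumor Cd4 cells, with Bnip3 at 212 in cells with many enzyme UMIs and 11.0 in cells with few, while Hif1a, Slc2a3 and Pdk1 overlap.

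Cycling was a small part of these libraries. Cells with 3 or more UMIs of the 15 cycling genes made up 2.23% of tumor Tdp cells, 1.71% of tumor Cd4 cells, 1.26% of lymph node Cd8 cells, 4.05% of Treg cells and 0.427% of lymph node Cd4 cells. The 102 cycling tumor cells were set against the other 5468. Of 21 members at 20 CPM none was called, while 0.249% of all 4820 genes tested were called higher and 0.187% lower. The member median was 0.08 and that of all genes 0.02. Pgk1 was at 468 CPM in cycling cells and 380 CPM in the others, a log2 ratio of 0.30 (0.15 to 0.45), and Mif was at 603 CPM in cycling cells and 489 CPM in the others, also 0.30 (0.17 to 0.43). Hif1a was at 177 CPM in cycling cells and 213 CPM in the others, -0.26 (-0.51 to -0.02). All genes called split into 12 higher and 9 lower here, into 7 higher and 12 lower with TMM scaling, into 170 higher and 243 lower after thinning to 2000 UMIs, where 2 members were called in each direction, and into 39 higher and 46 lower with totals without receptor, mitochondrial and ribosomal protein genes.

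Genes around the pathway came from 8 companion lists, which were written with earlier results of these data known. Over all 4817 genes tested in tumor Tdp over tumor Cd4 cells, 1.18% were called higher and 2.33% lower. Of the companion genes, 0 were called higher and 2 lower. These were Fam162a, at 75.7 CPM in Tdp cells and 199 CPM in Cd4 cells (-1.38), and Rora, a nuclear receptor also active in lymphocyte lineages, at 18.1 CPM in Tdp cells and 58.9 CPM in Cd4 cells (-1.65). Both belong to the list of further hypoxia responsive genes, whose median was -0.57 over 11 genes at 20 CPM. The 6 genes of the pentose phosphate pathway at 20 CPM, which makes NADPH and ribose from glucose, were all above 0, with a median of 0.12. The 4 genes of the serine and glycerol branches were also all above 0, with a median of 0.42, against -0.11 for all genes tested.

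Between tumor and lymph node Cd4 cells, 7 of 10 further hypoxia responsive genes were called higher and 0 lower, with a median of 1.88. Over all 5134 genes tested, 14.7% were called higher and 6.21% lower, with a median of 0.20. Bhlhe40, a repressor also induced by T cell receptor signals, was at 1347 CPM in tumor Cd4 cells and 10.0 CPM in lymph node Cd4 cells. Anxa2, an annexin of effector T cells, was at 587.5 CPM in tumor and 8.12 CPM in lymph node Cd4 cells. Rora (3.69), Mxi1, a MAX partner (3.05), Ndrg1 (1.90), the oxidoreductase gene Ero1l (1.86) and Fam162a (1.74) completed the 7. Several of these genes answer to other signals too.

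Of the other lists, 0 of 6 pentose phosphate genes were called, with a median of 0.19 beside 0.20 for all genes tested. Bsg was called higher, at 237 CPM in tumor Cd4 cells and 109 CPM in lymph node Cd4 cells (1.11). Emb, the related chaperone embigin, was called lower, at 96.9 CPM in tumor and 277 CPM in lymph node Cd4 cells (-1.51), as was the ADP-dependent glucokinase Adpgk at -1.07. Pdk3, another pyruvate dehydrogenase kinase, was called higher at 1.29, the glycogen genes Ugp2 and Gyg at 1.05 and 1.01, and the amino acid carrier subunit Slc3a2 at 1.12. Txnip, which restrains glucose uptake, was at 379 CPM in tumor Cd4 cells and 185 CPM in lymph node Cd4 cells (1.03, called higher). Myc, which drives glycolysis genes in activated T cells, was at 25.2 CPM in tumor Cd4 cells and 48.1 CPM in lymph node Cd4 cells (-0.91, not called). Between lymph node Cd8 and Cd4 cells, Anxa2 (2.40) and Bhlhe40 (1.34) were called higher and no companion gene lower. Over all 4530 genes tested there, 2.12% were called higher and 1.43% lower.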

How the data were processed

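RNA of single T cells was counted in 1 tumor and 1 lymph node library. Libraries were made from 8100 cells with 10x Genomics 5′ chemistry, per the labels' protocols, and Cell Ranger 3.1.0 with the mouse build mm10 was used, per the submitters' processing notes. The authors deposited raw UMI counts per gene and cell in 1 table (14721 genes, 10558 cells, all whole numbers) and other values per cell (library, label, receptor chains) in a second. The rule behind the labels and any filter on cells were not given in the sources used here.

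UMIs were summed over the cells of a label and scaled to their total (CPM). The measure of difference was log2 of CPM plus 1 in one label over that in the other, called at 2-fold among genes with 20 CPM or more in either label. Ratio intervals are exact conditional Poisson, shares of cells exact Clopper-Pearson, both 95% and for counting error only. With 1 RNA library per tissue there was no test and no p-value. A share for 0 cells was bounded by the exact binomial interval. Cells were thinned to 2000 UMIs without replacement. No doublet caller was run, and an alternative left out the deepest 5% of cells. The steps were tested on simulated data. Reads of glycolysis genes can match pseudogene copies, and the treatment of shared reads was not stated in those sources.

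The members, the 8 companion lists (89 of 98 genes in the table) and the comparisons were chosen with earlier results of these data known. All members are named, with full values for those at 20 CPM in a label. Companion genes are named where called between tumor Tdp and tumor Cd4, tumor and lymph node Cd4, or lymph node Cd8 and Cd4 cells, with Myc, Txnip and Bsg. Fam162a, Bsg, Gzmb and Ndrg1 in ranges of enzyme UMIs were chosen after their values were seen. Alternatives were TMM scaling, totals that leave out ribosomal protein, mitochondrial and receptor genes, averaging CPM over cells, thinning, a pseudocount of 10, no CPM minimum or one of 50, 1.5-fold, cells left out as cycling, deep or holding markers of other cell types, classes from coreceptor UMIs, all cells of each label, and cycling at 1 UMI. Python 3.11.15, numpy 2.4.6, scipy 1.17.1, pandas 2.3.3, matplotlib 3.10.9, R 4.3.3 and edgeR 4.0.16 (TMM factors only) were used.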

Additional observations from a re-analysis of the deposited data

Results flagged for a closer look

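Egln3 differed in opposite directions between cycling and other cells of the tumor labels. It was the only gene flagged in a search of all 36 members over this contrast and over tumor against lymph node. Among tumor Tdp cells it was at 3.74 CPM in cycling cells and 23.3 CPM in the others, a log2 ratio of -2.36 with an interval of -5.69 to -0.77. The level in cycling Tdp cells rests on fewer than 3 UMIs. Among tumor Cd4 cells it was at 115 CPM in cycling cells and 75.5 CPM in the others, a ratio of 0.60 with an interval of 0.06 to 1.12. There were 60 cycling Tdp and 42 cycling Cd4 cells, all from 1 library, and the difference between the labels was not tested.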

How the results depend on the processing

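Of 2952 recomputed log2 ratios of members, 2678 moved by less than their counting interval, 274 moved further and 0 reversed in sign as called genes. The 2678 include ratios that could not move. No CPM minimum, a minimum of 50 CPM and 1.5-fold change only which genes are called. Of 164 recomputed counts of called members, 24 moved by over 1.5 times, all at counts that were small at the outset, and the cause was not tested except where the alternative itself changes the genes or cells counted. In tumor Tdp over tumor Cd4 cells, 4 lower members became 7 with no CPM minimum, 10 at 1.5-fold and 2 with classes from coreceptor UMIs, where all genes called lower went to 2.29%, 6.48% and 2.16% in place of 2.33%. Lower in the tumor library were 2 with totals without receptor, mitochondrial and ribosomal protein genes and 3 with no minimum, in place of 1. All genes called lower there went to 9.72% and 5.64% in place of 5.18%. Lower in tumor than lymph node Cd4 cells was 1 at a minimum of 50 CPM in place of 2, and in tumor Tdp than lymph node Cd8 cells 4 with no minimum in place of 1. All genes called lower were 6.5% in place of 6.21% in the first pair and 5.73% in place of 5.13% in the second. In lymph node Cd8 over Cd4 cells the 1 higher member became 0 with a pseudocount of 10, at 50 CPM, without cells with other markers and with coreceptor classes, and 2 with no minimum or at 1.5-fold, and the 1 lower became 0 at 50 CPM and 3 at 1.5-fold, where 4.24% of all genes were called higher and 4.55% lower. In lymph node Treg over Cd4 cells the 2 higher became 1 with TMM scaling, at 50 CPM and without cells with other markers, 7 with no minimum and 6 at 1.5-fold, where 25.5% of all genes were called higher in place of 10.5%. All genes called higher were 6.04% with TMM scaling, 11.0% at 50 CPM, 10.8% without cells with other markers and 11.0% with no minimum. In cycling over other tumor cells the 0 higher became 2 after thinning, and the 0 lower became 1 with the reduced total, 2 after thinning and 1 with no minimum, while thinning called 3.42% of all genes higher and 4.89% lower in place of 0.249% and 0.187%. Of all genes, 0.758% were called lower with the reduced total and 4.17% with no minimum. The median of all genes tested shifted by over 0.1 with the reduced total, to -0.18 between libraries, -0.16 between the Cd4 labels, -0.20 in tumor Tdp over lymph node Cd8 cells and 0.0019 in lymph node Treg over Cd4 cells. It did so with TMM scaling, to 0.01 in tumor Tdp over Cd4 cells, 0.08 between the Cd4 labels and -0.05 in lymph node Treg over Cd4 cells. With no CPM minimum, which adds low genes, it was 0 between libraries and in tumor Tdp over lymph node Cd8 cells, 0.03 between the Cd4 labels and 0.19 in lymph node Treg over Cd4 cells. No paired analysis was possible because each group has 1 library and its replicate number only follows accession order. Depth limits Hk2, Ldhb, Slc16a3, Pfkfb4 and Vegfa, which have few UMIs in at least 1 label.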

Other observations

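The 19 tumor cells labelled Treg and the 406 labelled Tcell were in no comparison between labels given here. They were part of the whole tumor library and of the comparison of cycling with other tumor cells. In the Treg cells the 17 enzymes summed to 9426 CPM (8798 to 10087), above the 6 other labels for which the sum is given here, and Slc16a3 stood at 225 CPM (138 to 348, 20 UMIs), Bnip3 at 349 CPM (237 to 496, 31 UMIs) and Pkm at 1734 CPM (1471 to 2031). Of these 19 cells, 9 held 2 or more UMIs of markers of other cell types. The Tcell cells, with a median of 2040 UMIs, had an enzyme sum of 3901 CPM (3769 to 4036), with Slc2a3 at 66.4 CPM, Hif1a at 206 CPM and Eno1 at 116 CPM. The deposited table also holds rows Aldoa.1 and Eno1b, which are not members.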
